A study of Mus musculus with 12 samples.

Results

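The comparison covered here set macrophages from bleomycin-injured mouse lung labelled as lacking Il4ra (4 libraries) against bleomycin libraries labelled Il4ra wild type (4 libraries), that is 8 of the 12 libraries of the series. Members were chosen from the treatment and genotype in the library titles (Bleomycin_IL4Ra KO and Bleomycin_IL4Ra WT). The series title calls the cells Cx3cr1+ macrophages. The remaining 4 libraries, from saline-treated animals labelled wild type, serve only as a background (saline WT 2 holds 60598 counts, so its levels are uncertain), and no saline library with the deletion was analysed here. Age, sex, strain, time after bleomycin, the promoter or Cre behind the deletion and whether each library came from its own animal are not stated in the labels. The p-values therefore reflect the library-to-library spread alone, part of which may be technical.

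Il4ra encodes the signalling chain shared by the receptors for interleukin-4 and interleukin-13. Binding of either cytokine activates Janus kinases, which phosphorylate the transcription factor STAT6, and STAT6 then drives the alternative activation genes of mouse macrophages, among them Arg1, Retnla, Chil3, Mrc1 and Ccl17. Bleomycin damages the lung epithelium and is widely used to produce fibrosis in mice, and macrophages recruited from monocytes are among the cells that take part in the scarring. In bulk libraries, fewer cells of a type and less RNA per cell cannot be told apart.

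STAT6 favours TTC and GAA separated by 4 bases of any kind, a palindrome that reads the same on both strands. Of the 29 symbols of the interleukin-4 and interleukin-13 induced list and Il4ra, 16 had a promoter in the RefSeq table used (GRCm38.p6), and 4 of them held the palindrome in the 250 bases before a start. Counted by promoter it was 5 of 23 (21.7%), and over all 32851 promoters of that length the share was 5.85%. Promoters of 3 of these genes are shown, because their levels are given further on, with the palindrome in capitals: Retnla (chr16:48842359-48842608, plus strand), Ccl17 (chr8:94810203-94810452, plus strand) and Clec7a (chr6:129472780-129473029, minus strand). A match is a description of the letters and not a site of binding. The shares are not a test either, because some genes entered with several promoters. The same Clec7a palindrome was counted in overlapping promoters of that gene.
Retnla: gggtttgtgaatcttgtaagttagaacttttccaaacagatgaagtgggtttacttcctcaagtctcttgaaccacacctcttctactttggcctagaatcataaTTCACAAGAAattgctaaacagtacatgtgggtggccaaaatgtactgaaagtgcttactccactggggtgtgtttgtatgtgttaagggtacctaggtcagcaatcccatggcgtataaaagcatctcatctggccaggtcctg
Ccl17: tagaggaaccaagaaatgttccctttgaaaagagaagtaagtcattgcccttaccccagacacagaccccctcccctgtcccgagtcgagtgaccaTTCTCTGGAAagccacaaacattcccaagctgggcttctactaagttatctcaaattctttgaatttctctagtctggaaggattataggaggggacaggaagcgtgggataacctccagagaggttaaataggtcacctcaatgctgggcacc
Clec7a: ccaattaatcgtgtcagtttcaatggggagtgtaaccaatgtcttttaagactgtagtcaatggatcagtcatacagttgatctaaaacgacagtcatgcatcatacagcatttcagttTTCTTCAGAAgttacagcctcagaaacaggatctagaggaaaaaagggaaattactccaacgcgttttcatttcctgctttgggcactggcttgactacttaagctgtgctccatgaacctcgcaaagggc

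Total counts were 8514384 to 16842991 in the KO-labelled libraries and 9600870 to 18051113 in the WT-labelled ones. The library labelled bleomycin WT 4 stood apart before any test. Its highest Spearman correlation with another library was 0.730 across genes, against 0.939 to 0.987 for the other 7, and it held the highest level of the 8 libraries for 30.3% and the lowest for 45.5% of 15286 genes tested. In 583 genes its level was over 8 times that of the next library, a distance that no more than 3 genes reached in any other library. Counts over gene lists, and fold changes where printed, are therefore given with all 8 libraries and with the 7 that remain without WT 4. Among those 7, KO 2 stood furthest from the rest. On the first principal component, the axis of largest spread (32.4% of it), KO 2 lay at 98.2 and the rest at -37.4 to 19.5. KO 2 held counts for 18741 genes, against 17835 in WT 4 and 23103 to 30283 in the remaining bleomycin libraries. It was kept in both fits. Levels are CPM, read counts divided by library size after TMM scaling. The TMM factor was 0.579 in WT 4 and 0.898 to 1.05 in the other 7, so scaling raised the CPM of WT 4 relative to theirs. Where WT 4 lies against other libraries depends in part on that factor. The macrophage markers were present throughout: the 14 pan-macrophage markers summed to 54200 to 79030 CPM in the KO-labelled libraries and 34450 to 59310 CPM in the WT-labelled ones, the lowest being WT 4.

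No gene passed the test. With 8 libraries, edgeR called 0 of 15286 genes at an adjusted p under 0.05 (percent called 0), and the smallest adjusted p was 0.99871. At an unadjusted edgeR p under 0.05 there were 561 genes (percent called 3.67), fewer than the 764 or so that chance alone would give. Of these 561, 32 had the KO-labelled libraries higher and 529 lower (percent called 0.209 and 3.46). The libraries of the labels did not overlap for 236 genes (percent called 1.54), 149 with KO-labelled above (0.975) and 87 with KO-labelled below (0.569). Without WT 4, 0 of 16536 genes were called (percent called 0), and the smallest adjusted p was 0.99996. An unadjusted edgeR p under 0.05 was then found for 247 genes (percent called 1.49), where chance alone would give about 827. Of these 247, 133 were higher and 114 lower (0.804 and 0.689). Among these 7 the libraries did not overlap for 525 genes (percent called 3.17), 247 with KO-labelled above (1.49) and 278 below (1.68). DESeq2 also called 0 genes, with 369 genes at an unadjusted p under 0.05 in 8 libraries and 356 in 7, and limma-voom called 0, with 112 and 318. The common biological coefficient of variation was 0.726 with 8 libraries and 0.539 with 7. The values that follow therefore describe libraries, and none of the differences named passed the test.

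Several of the lowest fold changes in the fit of 8 libraries went with WT 4 alone. Maf, a transcription factor of resident macrophages, stood at 25.1, 36.9, 35.7 and 35.7 CPM in KO 1 to 4, at 34.4, 30.6 and 42.1 CPM in WT 1 to 3 and at 3353 CPM in WT 4. Its log2 fold change was -4.72 with 8 libraries and -0.09 with 7. Abcg1, a cholesterol exporter, stood at 7171 CPM in WT 4 and at 75.8 to 285 CPM in the other 7, and its log2 fold change went from -4.11 to -0.41. Bhlhe41, a regulator of alveolar macrophages, was at 1350 CPM in WT 4 against 22.9 to 38.5 CPM, and went from -3.84 to -0.23. Igf1, a growth factor for fibroblasts, was at 2265 CPM in WT 4 against 185 to 275 CPM, and went from -1.69 to 0.00. The plot of both sets of fold changes shows this column of genes.

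**Figure D1:**
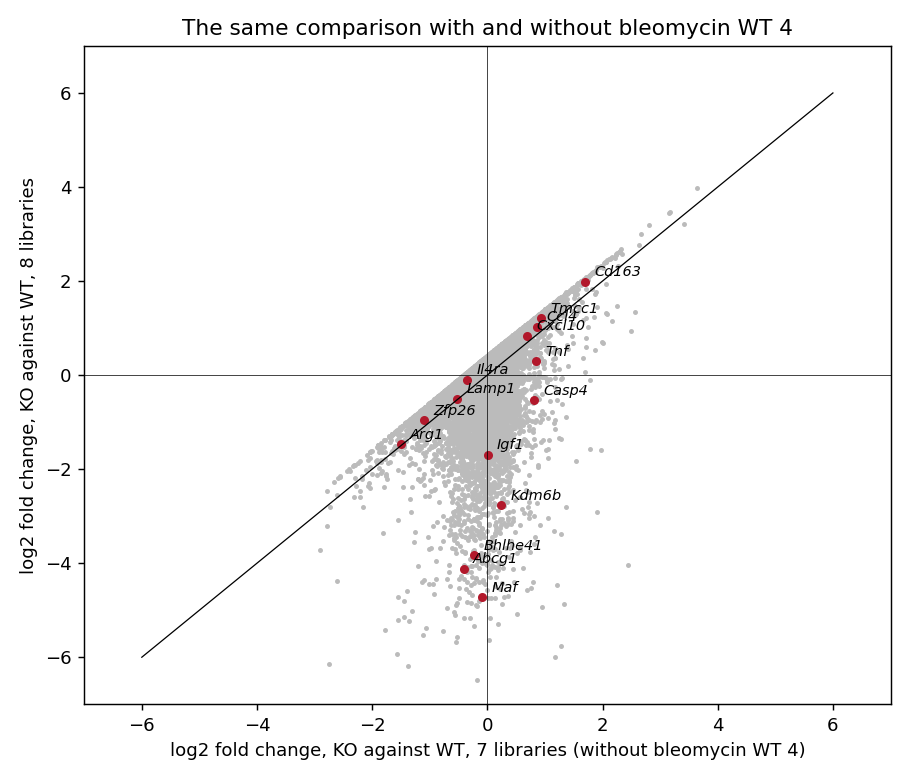
Each point is a gene; the x axis is the log2 fold change of KO-labelled against WT-labelled libraries without bleomycin WT 4 and the y axis the same with all 8 libraries, with the diagonal drawn and named genes in red. Maf, Abcg1, Bhlhe41, Kdm6b and Igf1 lie far below the diagonal, while Arg1, Cxcl10, Lamp1 and Zfp26 lie close to it.

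The labels did not separate Il4ra, and the estimates were too imprecise to tell whether it was lower under the KO label. Each direction given is therefore that of the labels. The gene lies on chromosome 7 from 125552120 to 125579474 on the plus strand (GRCm38), with 11 exon blocks, and was tested by its summed exonic counts. It stood at 473, 277, 235 and 343 CPM in KO 1 to 4, at 351, 626, 302 and 138 CPM in WT 1 to 4, and at 111, 32.4, 262 and 302 CPM in saline WT 1 to 4. The bleomycin groups overlapped, with KO 1 and WT 2 the highest of each. The log2 fold change was -0.10 (SE 0.43, 95% interval -1.07 to 0.87) with 8 libraries. The difference of mean log2 CPM had the other sign, 0.05, and its exact two-sided permutation p was 0.943, where 0.0286 is the smallest possible. Without WT 4 the log2 fold change was -0.35 (SE 0.30, 95% interval -1.03 to 0.32). The difference of mean log2 CPM was then -0.34, with an exact two-sided permutation p of 0.429 over 35 regroupings. The last exon block holds 75.2% of the exonic bases, and the labels do not say which exons were deleted, so summed counts cannot show whether a deleted stretch was missing. Among 42 genes listed within 1 Mb of Il4ra, 21 were tested with 8 libraries and 22 with 7, and 0 were called in either fit (median log2 fold change 0.09 and -0.14).

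The direction of the receptor pathway list, which includes Il4ra, depended on the libraries used. Of its 14 members tested with 8 libraries, 8 had fold changes above 0 and 6 below, with a median log2 fold change of 0.01 against -0.01 for all genes; without WT 4 it was 3 above and 12 below of 15, with a median of -0.14. Without WT 2 as well, 10 of 15 were above 0 and the median was 0.08. Il2rg, the common gamma chain, stood at 170 to 260 CPM in KO-labelled and 160 to 213 CPM in WT-labelled libraries. Stat6 stood at 333, 309, 215 and 230 CPM in KO 1 to 4 and at 227, 394, 213 and 38.4 CPM in WT 1 to 4. Il13ra1, the partner chain for interleukin-13, stood at 152 to 226 CPM in KO-labelled libraries and 154 to 355 CPM in WT-labelled ones, the highest being WT 4.

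**Figure D2:**
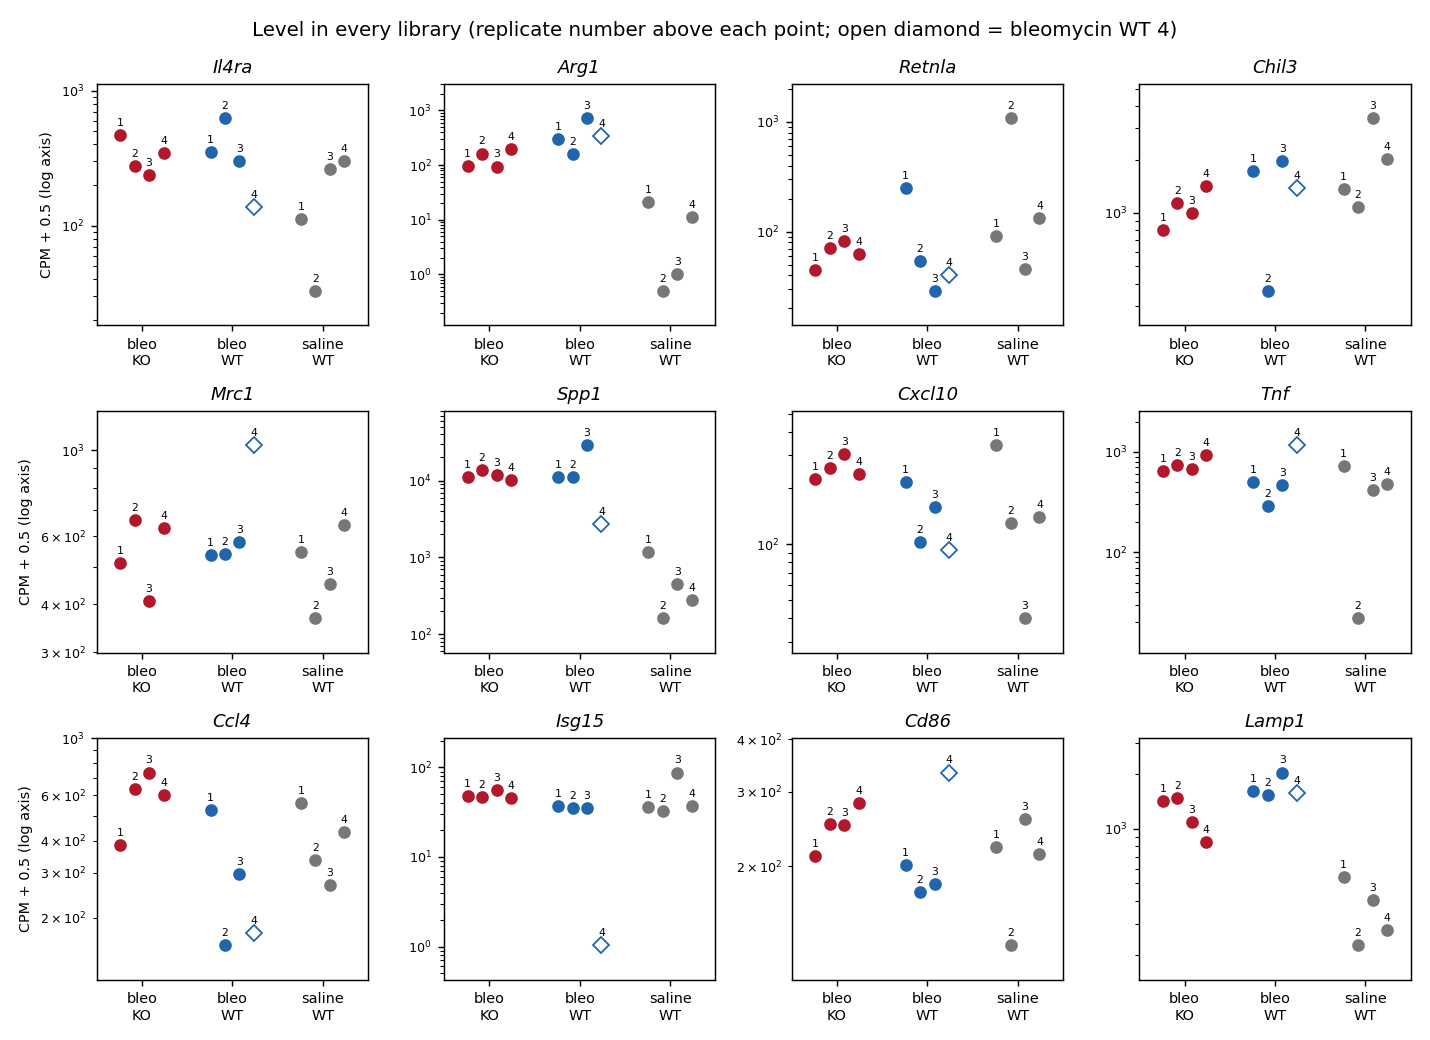
Each point is a library and the y axis is CPM plus 0.5 on a log scale, for 12 genes in bleomycin KO, bleomycin WT and saline WT, with the replicate number above it and WT 4 as an open diamond. The groups overlap for Il4ra, Arg1 and Retnla, while the Cxcl10 points of the 4 KO-labelled libraries lie above all 4 WT-labelled ones.

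Genes that interleukin-4 and interleukin-13 induce were split evenly in both fits, and their direction depended on the libraries left out. In both fits 13 of 26 members tested were above 0 and 13 below, with median log2 fold changes of 0.03 and -0.07. Without WT 2 as well as WT 4, 19 of 27 were above 0 and the median was 0.16. Without WT 3 as well as WT 4 it was 10 of 27, with a median of -0.19. Arg1, which hydrolyses arginine, was the member with the lowest value that did not rest on WT 4. It stood at 95.7, 163, 93.8 and 198 CPM in KO 1 to 4 and at 295, 161, 722 and 345 CPM in WT 1 to 4, and at 0 to 20.4 CPM in the 4 saline libraries. Only WT 2 came down into the KO-labelled range. The log2 fold change was -1.47 (SE 0.48, unadjusted edgeR p 0.0129) with 8 libraries and -1.50 (SE 0.48, unadjusted p 0.0128) with 7, and the adjusted p was 0.99871 and 0.99996. Leaving out each of the 8 libraries in turn gave -1.71 to -0.96, and each of the 7 in turn -1.88 to -0.72, both of the values nearest 0 being without WT 3.

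Other members went either way. Mrc1, the mannose receptor, stood at 511, 660, 407 and 629 CPM in KO 1 to 4 and at 534, 537, 577 and 1031 CPM in WT 1 to 4. Chil3, a chitinase-like protein of alternatively activated macrophages, stood at 802 to 1409 CPM in KO-labelled libraries and 363 to 1966 CPM in WT-labelled ones, and Retnla at 43.9 to 81.2 CPM against 28.3 to 248 CPM, the 248 being WT 1 alone. Ccl17 was at 162 to 215 CPM against 68.1 to 288 CPM. In the saline libraries Mrc1 spanned 368 to 639 CPM and Chil3 1081 to 3419 CPM, and both ranges overlapped those of the bleomycin libraries. Ccl22, a chemokine for T cells like Ccl17, was at 99.4, 95.1, 145 and 135 CPM in KO 1 to 4 and at 84.1, 106, 53.5 and 78.4 CPM in WT 1 to 4 (log2 fold change 0.56 in both fits). Clec7a, a beta-glucan receptor, was at 1118 to 1818 CPM against 950.4 to 1370.1 CPM. Kdm6b, a histone demethylase, had a log2 fold change of -2.76 with 8 libraries and 0.24 with 7, with WT 4 at 1474 CPM and the other 7 libraries at 33.9 to 82.6 CPM.

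**Figure D3:**
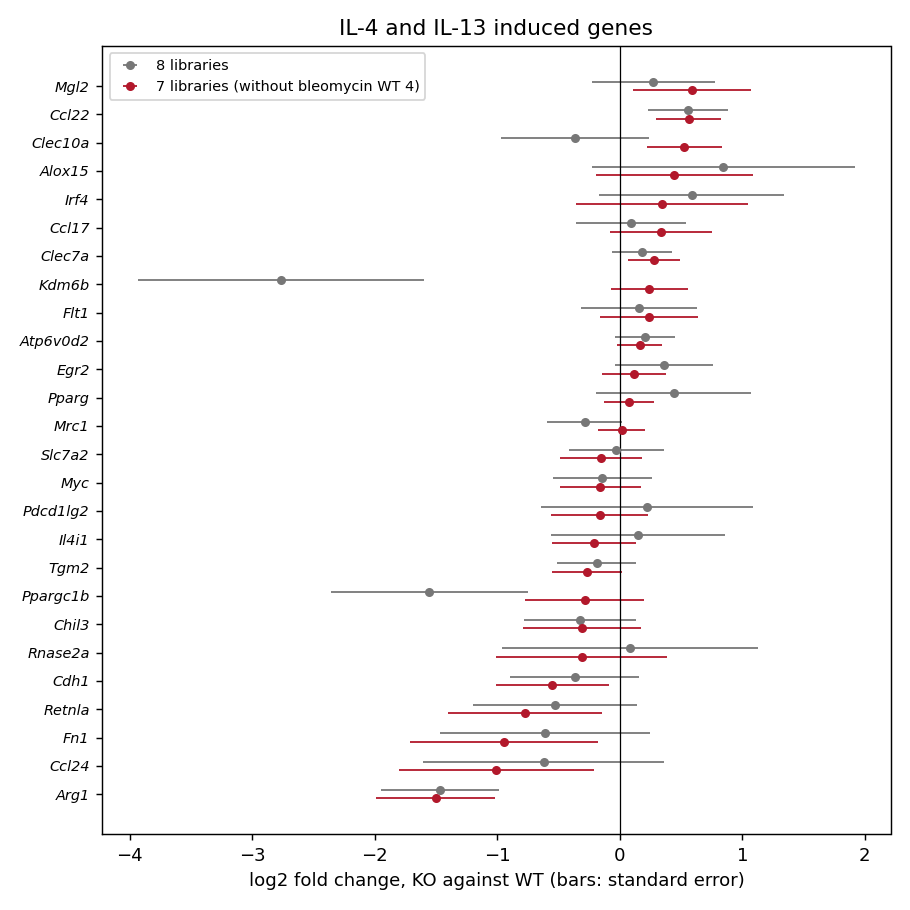
Log2 fold changes of the interleukin-4 and interleukin-13 induced genes with all 8 libraries (grey) and without bleomycin WT 4 (red), with bars for the standard error. Arg1 has values near -1.5 in both, while Kdm6b moves from -2.76 to 0.24.

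Of the 21 programme lists, inflammatory cytokines and chemokines had the highest median. With 8 libraries 22 of 27 members had log2 fold changes above 0 and 5 below, with a median of 0.29. Without WT 4 it was 24 of 27 above and 3 below, with a median of 0.36, against -0.02 for all genes. Members ran from -1.26 to 1.21 with 8 libraries and from -1.29 to 0.86 with 7. The member furthest from 0 was thus a lower one in both fits. With 8 libraries 3 members had an unadjusted p under 0.05 and the KO-labelled libraries higher, where the background over all genes was 0.209%; without WT 4 it was 5, where it was 0.804%. Summed over the list, the level was 20900, 23010, 22690 and 23040 CPM in KO 1 to 4 and 20480, 14390, 18590 and 27220 CPM in WT 1 to 4. Of WT 1 to 3, WT 2 was the lowest, and leaving it out of the 7 gave 22 of 27 above 0 and a median of 0.19.

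Cxcl10, a chemokine induced by interferon, stood at 222, 256, 303 and 236 CPM in KO 1 to 4 and at 214, 102, 157 and 92.8 CPM in WT 1 to 4, so the groups did not overlap (percent called for KO-labelled above, 0.975). The log2 fold change was 0.84 (SE 0.33, unadjusted edgeR p 0.0309), and 0.69 (SE 0.26, unadjusted p 0.0266) without WT 4 and 0.45 without WT 2 as well. Tnf, the cytokine, stood at 641, 739, 674 and 926 CPM in KO 1 to 4 and at 503, 287, 463 and 1163 CPM in WT 1 to 4. Its groups overlap only through WT 4 (percent called for KO-labelled above among the 7, 1.49). The log2 fold change was 0.29 with 8 libraries and 0.84 (SE 0.24, unadjusted edgeR p 0.00645) with 7. Ccl4, a chemokine for monocytes and T cells, was at 383, 636, 736 and 602 CPM in KO 1 to 4 and at 526, 156, 295 and 174 CPM in WT 1 to 4. Saline libraries spanned 39.6 to 338 CPM for Cxcl10, 21.6 to 716 CPM for Tnf and 267 to 561 CPM for Ccl4. Ccl3 was at 254 to 498 CPM against 146 to 336 CPM, and Cxcl2, which attracts neutrophils, at 2348 to 2959 CPM against 1404 to 2524 CPM.

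Il1a stood at 676, 684, 811 and 688 CPM in KO 1 to 4 and at 582, 325, 630 and 331 CPM in WT 1 to 4, without overlap (percent called for KO-labelled above, 0.975). Il1b, the related cytokine, overlapped, at 3167 to 4215 CPM against 1471 to 3911 CPM. Il6 was at 110 to 173 CPM in KO-labelled libraries, at 47.1 to 115 CPM in WT 1 to 3 and at 353 CPM in WT 4. Neutrophil markers summed to 2225, 1422, 1985 and 1372 CPM in KO 1 to 4 and to 1885, 962, 1544 and 879 CPM in WT 1 to 4; none of the 15 was at 0 in all 8 libraries, and their part in the result was not tested.

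**Figure D4:**
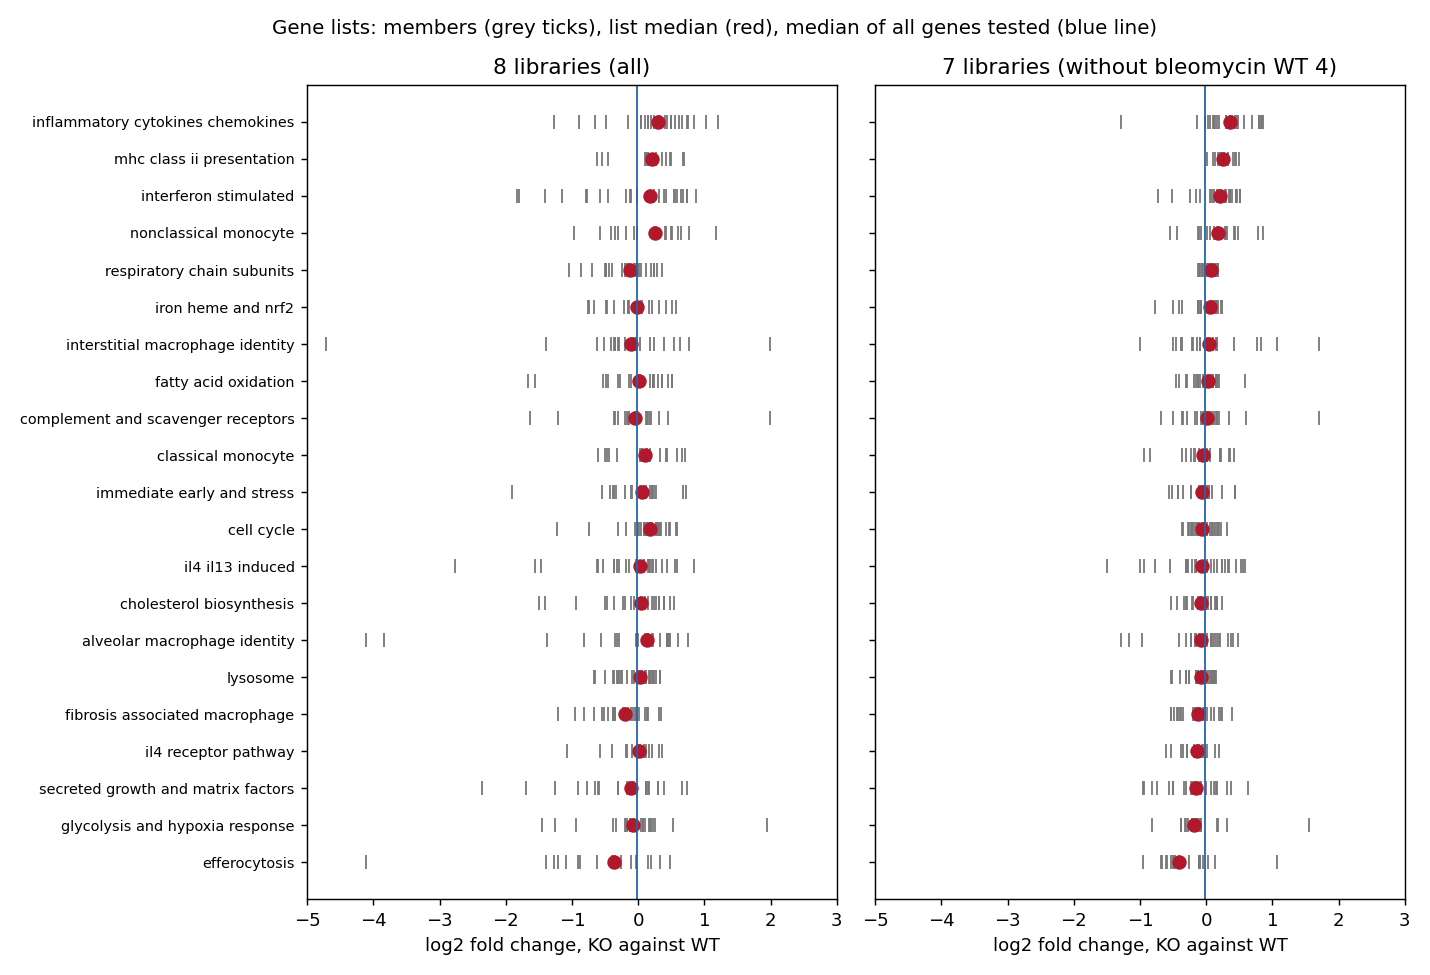
Log2 fold changes of the members (grey ticks) and the median (red) of 21 gene lists, with all 8 libraries on the left and without bleomycin WT 4 on the right; the blue line is the median of all genes tested. Inflammatory cytokines have the highest median on the right, 0.36, and efferocytosis the lowest, -0.41.

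Interferon-stimulated and antigen presentation genes had more members above 0 without WT 4 than with it. The interferon list had 14 of 26 members above 0 with 8 libraries and 21 of 26 with 7 (median 0.18 and 0.21). Leaving out KO 1 from the 7 gave 17 of 26 and a median of 0.11. Isg15, a ubiquitin-like protein, stood at 47.9, 46.5, 55.2 and 45.3 CPM in KO 1 to 4 and at 36.7, 34.7, 34.7 and 0.533 CPM in WT 1 to 4. Ifit3 (33.2 to 41.5 CPM against 23.0 to 32.6 CPM in WT 1 to 3), Gbp2 (79.8 to 88.4 against 51.5 to 65.6 CPM) and Usp18 (57.2 to 87.8 against 48.2 to 51.9 CPM) did not overlap among the 7 either (percent called for KO-labelled above, 1.49). WT 4 was at 73.7 CPM for Ifit3 and 90.8 CPM for Gbp2, above every KO-labelled library, and at 12.6 CPM for Usp18. The log2 fold changes with 8 and 7 libraries were -0.01 and 0.51 for Ifit3, 0.31 and 0.52 for Gbp2, and 0.73 and 0.45 for Usp18. These genes and Isg15 show the higher side only. Of the 26 members, 12 were below 0 with 8 libraries and 5 with 7. Members ran from -1.84 to 0.87 and from -0.73 to 0.52. Ifih1 and Oas2, picked by smallest p, were lower under the KO label with 8 libraries (95% intervals -3.81 to 0.14 and -3.11 to 0.28). With 7 libraries their intervals were -0.60 to 0.74 and -0.41 to 0.64. Saline libraries other than the shallow saline WT 2 spanned 35.3 to 87.3 CPM for Isg15.

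Of the 14 MHC class II presentation genes, 11 were above 0 with 8 libraries and 14 with 7, with medians of 0.21 and 0.26. The costimulatory receptors Cd86 and Cd40 were the 2 of 14 that did not overlap among the 7, with KO-labelled above (percent called 1.49). Cd86 was at 212 to 281 CPM against 173 to 202 CPM in WT 1 to 3, and at 333 CPM in WT 4. Cd40 was at 65.6 to 91.2 CPM against 51.2 to 63.4 CPM, and at 114 CPM in WT 4. H2-Eb1 was lowest in WT 3 (1089.5 CPM against 1681 to 3798 CPM in the other 7), as was Cd74, the invariant chain (3335 CPM against 7637 to 13977 CPM). Without WT 3 as well as WT 4, 6 of the 14 genes were above 0 and the median was -0.02, so the count rests on that library. Markers of other cells that carry MHC class II were also lowest in WT 3. Dendritic cell markers summed to 459 CPM there and 757 to 948 CPM in the other 7, and B and plasma cell markers to 412 CPM and 800 to 1818 CPM. Their part in the result was not tested.

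Genes of scar-associated macrophages were not separated by the labels. Of 25 such genes 19 were below 0 with 8 libraries and 18 with 7 (median -0.20 and -0.13), and leaving out WT 3 from the 7 gave 8 below 0. Spp1, the matrix protein osteopontin, stood at 11141, 13749.5, 11702 and 10125 CPM in KO 1 to 4, at 11236, 11209.5, 28753 and 2723 CPM in WT 1 to 4, and at 162 to 1159 CPM in saline libraries. Gpnmb was at 836 to 1459.7 CPM against 501 to 2313 CPM, Trem2 at 436 to 494 against 338 to 671 CPM, and Apoe at 22950.4 to 32999 against 21379 to 38859.9 CPM. Vegfa, a growth factor for endothelium, was at 40.2 to 151 CPM against 104 to 389 CPM (log2 fold change -1.26 and -0.81, and -0.29 without WT 2 as well as WT 4). It belongs to the list of secreted growth and matrix factors, of which 17 of 26 were below 0 with 8 libraries, 18 with 7 and 13 without WT 2 as well. Timp2, an inhibitor of matrix metalloproteinases, stood at 388 to 610 CPM in KO-labelled libraries and at 613, 758 and 803 CPM in WT 1 to 3, with WT 4 at 102 CPM.

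Lamp1, a membrane protein of lysosomes, was the 1 of 30 lysosome genes whose groups did not overlap in either fit. Over all genes the percent called for KO-labelled below was 0.569 with 8 libraries and 1.68 with 7. Lamp1 stood at 1426, 1474, 1086 and 841 CPM in KO 1 to 4 and at 1629.8, 1539.8, 2050.2 and 1586 CPM in WT 1 to 4 (log2 fold change -0.50, SE 0.24, and -0.52, SE 0.21). Over the list, 16 of 30 genes were above 0 with 8 libraries and 11 with 7. Without WT 2 as well it was 22 of 30, with a median of 0.07. Cd163, a scavenger receptor for haemoglobin, stood at 15.1, 103, 43.9 and 146 CPM in KO 1 to 4, against 22.1, 20.2, 29.6 and 6.04 CPM in WT 1 to 4 (log2 fold change 1.99, SE 0.73, and 1.70, SE 0.66). Egln3, an oxygen-sensing hydroxylase, was at 4.14 to 12.4 CPM against 0 to 3.30 CPM. Kit, a growth factor receptor of mast cells and progenitors, was at 8.55 to 26.7 CPM against 24.8 to 103 CPM.

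Genes picked by the smallest unadjusted p among non-overlapping genes of at least 10 CPM included Tmcc1, an endoplasmic reticulum protein, in both fits. Tmcc1 stood at 27.1, 37.9, 34.3 and 35.7 CPM in KO 1 to 4 and at 20.7, 17.9, 14.9 and 4.98 CPM in WT 1 to 4. Il12rb2, a chain of the interleukin-12 receptor, was at 12.8 to 17.7 CPM against 1.42 to 10.3 CPM, and Slamf8, a receptor of myeloid cells, at 46.1 to 65.9 against 3.38 to 43.5 CPM. Without WT 4, Casp4, the caspase that senses lipopolysaccharide, was at 38.3 to 54.5 CPM against 19.96 to 30.9 CPM, and Mdm2, the ligase that restrains p53, at 261 to 367 against 204 to 220 CPM; WT 4 was far above, at 179 and 943 CPM. On the low side, Zfp26 was at 5.36 to 10.1 CPM against 11.2 to 20.4 CPM in WT 1 to 4, Hnrnpd, an RNA-binding protein, at 21.7 to 35.04 against 35.4 to 57.5 CPM, and Cry1, a repressor of the circadian clock, at 18.0 to 29.1 against 31.6 to 54.2 CPM. Mon1a and Crtap were below WT 1 to 3 as well (10.8 to 18.2 against 21.8 to 28.5 CPM, and 13.7 to 21.7 against 26.6 to 33.6 CPM), with WT 4 lower still.

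A second split crossed the labels. In 8998 genes of at least 10 CPM, the deviation of a library from the mean of the 7 was correlated with the exonic length of the gene. The Spearman correlation was 0.476 in WT 2 and 0.516 in KO 1, and lay between -0.262 and -0.158 in the other 5. A gene's deviations cancel out over the 7, so those negative values are tied to the positive ones. WT 2 and KO 1 were the highest 2 of the 7 libraries in 2145 genes, whose median exonic length was 4546 bases against 3207 for all. Fibronectin, Fn1, is such a gene, at 4028 CPM in KO 1, 7591 CPM in WT 2 and 441 to 1243 CPM in the other 6, and so is Thbs1, at 2119 CPM and 3699 CPM. The efferocytosis list, genes for the uptake of dying cells, had the lowest median of the 21 programme lists, -0.41, with 16 of 19 genes below 0 without WT 4, and -0.36 with 15 of 19 below 0 with 8 libraries; without WT 4 and WT 2 it was 9 of 19 and 0.01. With a term for WT 2 and KO 1, a fit chosen after seeing the data, 0 genes were called, 443 had an unadjusted p under 0.05, and Il4ra stood at -0.25, Arg1 at -1.45, Cxcl10 at 0.70 and Tnf at 0.83. What part this split plays in the comparison was not tested beyond these fits.

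**Figure D5:**
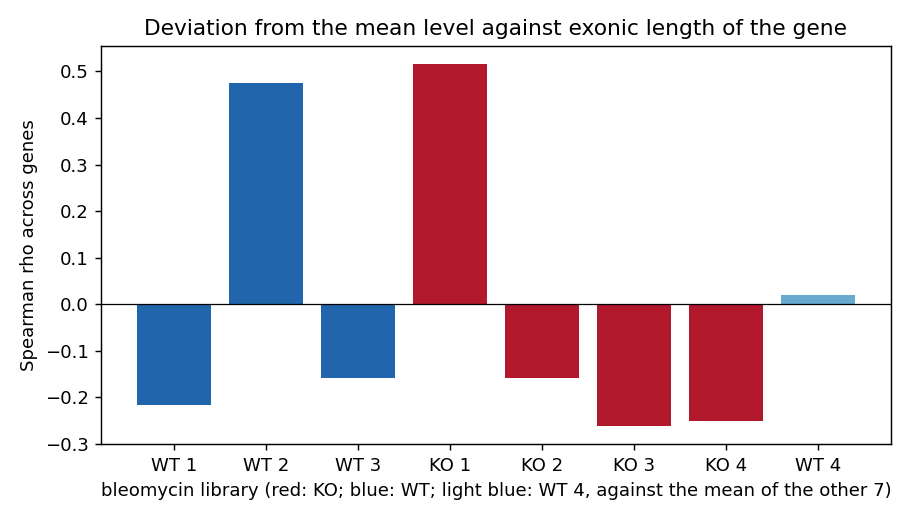
Spearman correlation, across 8998 genes, between a library's deviation from the mean level of the 7 bleomycin libraries without WT 4 and the exonic length of the gene. WT 2 and KO 1 lie at 0.476 and 0.516 and the other 5 of the 7 below 0. A gene's deviations cancel out over the 7, so these signs are not independent.

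Summed markers of cells other than macrophages lay below the pan-macrophage sums and overlapped between the labels. Among single fibroblast markers, 1 of 13 tested with 8 libraries and 1 of 14 with 7 had KO-labelled above without overlap. Over all genes the percent called was 0.975 and 1.49. Lung epithelial markers summed to 286 to 784 CPM in KO-labelled and 356 to 1014 CPM in WT-labelled libraries, against 1613 to 2467 CPM in saline libraries, and their leading gene Sftpc, a surfactant protein, stood at 55.6 to 278 CPM and 61.2 to 623 CPM. Fibroblast markers summed to 189 to 571 CPM and 289 to 358 CPM, with Col3a1, a collagen, at 35.5 to 232 and 87.9 to 148 CPM. T and NK cell markers summed to 483 to 949 CPM and 485 to 1299 CPM. S100a9, the leading neutrophil marker, was at 417 to 726 CPM and 49.9 to 582 CPM, against 1298 to 12137 CPM in saline libraries. Lyz2, the lysozyme of macrophages and monocytes, was at 34559 to 55533 CPM and 14487 to 39157 CPM.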

How the data were processed

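The samples are 12 RNA libraries of lung macrophages, and the comparison uses 8 of them. Per the labels' protocols, full-length SMART-Seq cDNA from little RNA was tagmented with Nextera XT and read single-end on a NovaSeq. Strand is not kept, so a gene and its antisense partner cannot be told apart. The submitters' processing notes name the tools GSNAP, Partek and limma and the builds mm10 and GRCm38, without versions. The authors deposited a table of raw read counts for each of 52636 genes, and how they counted reads that match several places is not stated. The series' design text describes another experiment and was not used.

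Genes were filtered with filterByExpr, scaled by TMM and tested with edgeR 4.0.16 (robust quasi-likelihood) in R 4.3.3 on 8 libraries, and again without WT 4, with Benjamini-Hochberg adjusted p under 0.05. Log2 fold changes, standard errors (fold change over the root of F) and CPM were computed from the deposited counts. DESeq2 1.42.0 and limma 3.58.1 (voom) were alternatives. Scaling uses all 12 libraries for the levels. The chi-square of every pair of the 8 libraries exceeded sampling noise, so no pair was counted as 1 library. Gene lists (32, with 577 of 578 symbols matched) and the members were chosen with earlier results of these data known. Named genes were drawn from sets set by rule, and only some genes of each set are printed. These sets were the 8 of smallest p in the interleukin-4 lists and the 10 non-overlapping genes of at least 10 CPM with the smallest p in each direction of each fit. From each programme list they held the 2 genes of smallest p, and from each marker list the 2 genes of highest mean level. Others were chosen after their values were seen, namely Il2rg, Stat6, Il13ra1, Chil3, Retnla, Clec7a, Fn1, Ccl3, Cxcl2, Il6, Il1b, Isg15, Ifit3, Usp18, Cd40, Cd86, Cd74, Spp1, Gpnmb, Trem2, Apoe, Timp2 and Thbs1.

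The fit was also run on simulated counts with changes added to some genes, and the outcome is not given here. Alternatives were other scaling, filters and tools, a 12-library fit, a replicate block and leaving out each library; 2 fits for WT 2 and KO 1 were added after seeing the data.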

Additional observations from a re-analysis of the deposited data

Results flagged for a closer look

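In 116 groups of 4 libraries, 1 library lay far from the other 3 in 19 cases, where chance gives about 1 in 20 groups. Many of these genes were chosen after their values were seen or by p-values that WT 4 enters, so the number of cases cannot be read against that rate. The library labelled bleomycin WT 4 accounts for 11. It was high for Abcg1 (7171 CPM), Maf (3353 CPM), Igf1 (2265 CPM), Kdm6b (1474 CPM), Bhlhe41 (1350 CPM), Mrc1 (1031 CPM), Mdm2 (943.1 CPM), Il13ra1 (355.2 CPM) and Casp4 (179.5 CPM), and low for Usp18 (12.62 CPM) and Isg15 (0.5331 CPM). WT 2 was high for Fn1 (7591 CPM) and WT 1 for Retnla (248.5 CPM). KO 1 was high for Fn1 (4028 CPM) and low for Ccl17 (162.3 CPM) and Maf (25.05 CPM). KO 2 was low for Ifit3 (33.23 CPM), and KO 3 was high for Il1a (811.1 CPM) and Il6 (172.8 CPM).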

How the results depend on the processing

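No gene was called under any fit run: all 12 libraries, RLE scaling, other filters, DESeq2, limma-voom with or without sample weights, a replicate block, or leaving out each library. The labels do not say whether libraries with the same replicate number share a source. Same-numbered libraries correlated at -0.152 to 0.063 in their deviations with 8 libraries. WT 4 enters these deviations, so the correlations cannot settle whether the samples are paired. With the block 49 genes had an unadjusted edgeR p under 0.05, against 561 without it. Without WT 4 the counts were 162 and 247, same-numbered libraries correlated at -0.376 to 0.128, and KO 1 correlated best with WT 2. Under the replicate block the sign turned for Il4ra (0.044), Retnla (0.12), Il6 (0.32), Ifit3 (0.15), Spp1 (0.20), Trem2 (0.013), Timp2 (0.11), Casp4 (0.20) and Mdm2 (0.011). With no filter beyond 1 count it turned for Il6 (0.019), Ifit3 (0.12), Trem2 (0.044) and Col3a1 (0.068), and with a mean of at least 10 CPM for Ifit3 (0.041). Among the 7 libraries, the term for WT 2 and KO 1 turned Stat6 (0.069) and Igf1 (-0.036), and leaving both out turned Stat6 (0.20) and Abcg1 (0.064); these 2 fits were chosen after seeing the data.

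Leaving out 1 of the 8 libraries at a time, the log2 fold change changed sign for Il4ra (-0.35 to 0.33), Il13ra1 (-0.30 to 0.19), Stat6 (-0.022 to 0.77), Mrc1 (-0.38 to 0.016), Retnla (-0.83 to 0.66), Ccl17 (-0.18 to 0.38), Clec7a (-0.0018 to 0.28), Fn1 (-1.46 to 0.84), Kdm6b (-3.13 to 0.24), Il6 (-0.43 to 0.80), Ifit3 (-0.20 to 0.51), Spp1 (-0.54 to 0.47), Gpnmb (-0.49 to 0.17), Trem2 (-0.15 to 0.18), Apoe (-0.19 to 0.078), Timp2 (-0.51 to 0.035), Igf1 (-1.99 to 0.0034), Casp4 (-0.80 to 0.81), Mdm2 (-0.57 to 0.56) and Col3a1 (-0.62 to 0.28). Leaving out 1 of the 7, the sign changed for 17 of 58 genes, among them Il2rg (-0.04 to 0.23), Chil3 (-0.76 to 0.06), Cd74 (-0.14 to 0.78), Maf (-0.20 to 0.04), Abcg1 (-0.80 to 0.42), Thbs1 (-1.70 to 0.01) and Sftpc (-1.13 to 0.16). The cause was not tested. The median standard error was 0.667 log2 units with 8 libraries and 0.399 with 7.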

Other observations

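Counts of cell cycle and respiratory chain genes above 0 turned over between the fits of 8 and 7 libraries. Cell cycle genes had 24 of 30 members above 0 with 8 libraries and 11 of 30 without WT 4, with medians of 0.18 and -0.06, and without WT 2 as well 20 of 30 (median 0.09). Subunits of the respiratory chain had 9 of 27 above 0 and then 21 of 27 (median -0.12 and 0.07), and without WT 2 as well 8 of 27. Glycolysis and hypoxia genes were below 0 in 13 of 24 and then 20 of 24 members (median -0.07 and -0.18), and without WT 2 as well in 13 of 25. Patrolling monocyte genes had medians of 0.26 and 0.18. None of these genes passed the test.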
